A study of Mus musculus with 6 samples.

Results

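The genes described here encode 10 neuropeptide precursors that act in the control of feeding, namely Cartpt, Pomc, Npy, Agrp, Hcrt, Pmch, Trh, Crh, Gal and Oxt. They were chosen by gene symbol, and all 10 were found among the 23282 gene entries of the count tables. Messenger RNA was sequenced in 6 libraries of forebrain hemispheres from wild-type male C57BL/6J mice of 8 to 10 weeks, freed of olfactory bulbs and cerebellum. Normal chow (NCD) was the diet behind 3 libraries and a high-fat diet with 60 kcal% fat (HFD) that behind the other 3, each eaten for 10 days. The libraries were made with QuantSeq, which primes on the poly(A) tail and reads near the 3′ end, so each transcript is counted about once whatever its length. The total count per library lay between 6842785 and 9689372. Whether each library stands for a separate animal is not stated in the labels, so p-values measure the spread between these libraries.

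Feeding neuropeptides are made as long precursors, cut by prohormone convertases and stored in dense-core granules until release. In the arcuate nucleus of the hypothalamus, Pomc and Cartpt neurons reduce food intake, while Agrp and Npy neurons drive it. Neurons of the lateral hypothalamus make the orexins from Hcrt and melanin-concentrating hormone from Pmch, and the paraventricular nucleus makes oxytocin, Crh and Trh. Several of these mRNAs are also made elsewhere in the forebrain. Npy and Crh are known from cortical interneurons, and Cartpt from other nuclei of the forebrain and midbrain. In bulk tissue, fewer cells of a type and less RNA per cell cannot be told apart.

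Cartpt was the member that differed between the diets. Its mRNA was lower in every HFD library than in every NCD library, at 0.556 of the NCD level. Of the 9 members with enough reads for the test over all genes, 1 was lower on the HFD past the study's thresholds, a fold change of 1.5 and an unadjusted p of 0.05, and 0 were higher. Over the 13771 genes tested, 0.748% were lower and 0.53% higher past the same thresholds, and the 1 member called was Cartpt. After Benjamini-Hochberg adjustment over all genes in edgeR, 0 members and 0% of the genes tested stayed under 0.05. Before adjustment, p was under 0.05 for 1 member, Cartpt, and for 507 genes in all. DESeq2 gave an adjusted p under 0.05 to 2 genes, of which 1 was a member, Cartpt, and limma to 0. Npy and Crh lay close to equal on both diets. Hcrt, Pmch, Oxt and Gal were far lower in HFD replicate 3 than in the other 5 libraries, and Pomc was highest there.

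**Figure D1:**
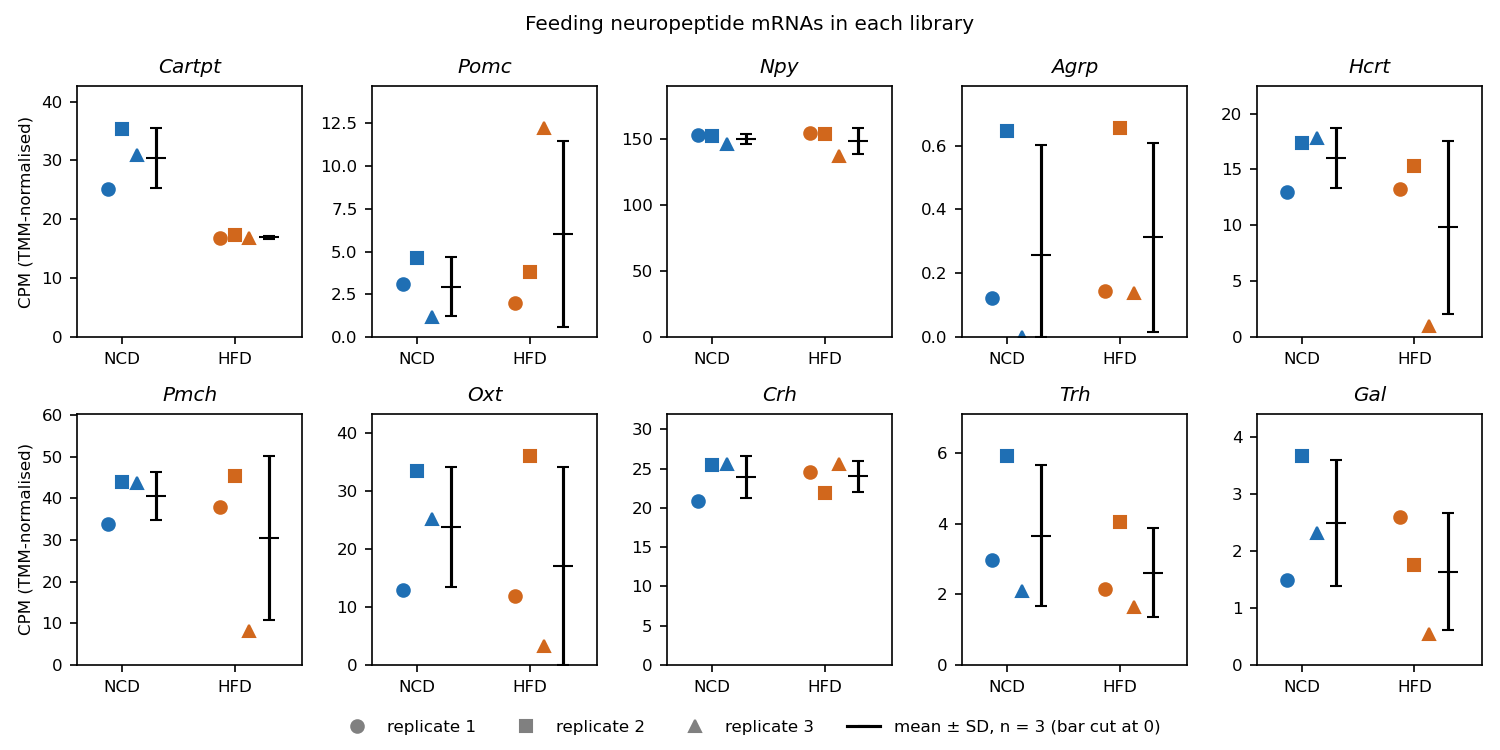
Expression of the 10 feeding neuropeptide genes in CPM (counts scaled to a common library total, linear axes from 0), with 1 point per library, circles, squares and triangles for replicates 1, 2 and 3, and the mean ± SD of each diet at the side. Cartpt separates the diets, at 25.2 to 35.3 CPM on the NCD and 16.8 to 17.3 CPM on the HFD, while Hcrt, Pmch, Oxt and Gal are lowest and Pomc highest in HFD replicate 3.

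Cartpt encodes the precursor of the cocaine- and amphetamine-regulated transcript peptides, which reduce food intake when given to the brain. The gene lies on chromosome 13 from 99898489 to 99901091 of GRCm38, on the minus strand, with no exon of another gene over its exons in GENCODE vM21. The NCD libraries, in the order of their replicate numbers, held 204, 327 and 294 Cartpt counts, and the HFD libraries 117, 158 and 122. Scaled to a common library total with edgeR's TMM normalisation (CPM), these were 25.2, 35.3 and 31 CPM on the NCD and 16.8, 17.3 and 16.8 CPM on the HFD. The groups did not overlap, and the HFD libraries lay within less than 1 CPM of each other. Mean levels were 30.5 ± 5.06 CPM on chow and 17 ± 0.266 CPM on the HFD (SD, n = 3 each). The log2 fold change was -0.85 (95% interval from -1.17 to -0.53), or 0.556 of the NCD level. Its unadjusted p was 3.77e-05, the smallest of all genes tested, and its adjusted p = 0.519 in edgeR's quasi-likelihood test. An exact permutation test over the libraries, two-sided, gave a p of 0.1, the smallest that 3 against 3 can reach. Of all genes tested, 4.49% had each HFD library below each NCD library, so this separation alone sets no gene apart.

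Leaving out any of the 6 libraries left Cartpt past both thresholds. Its log2 fold change then ran from -0.96, without NCD replicate 1, to -0.73, without NCD replicate 2. In the fit that left HFD replicate 3 out, the value was -0.84 and the unadjusted p 9.07e-05. There 1 of 9 members was again lower past the thresholds, against 0.84% of the genes tested. The adjusted p of Cartpt depended on the method, with 0.0423 from DESeq2, 0.696 from limma after quantile normalisation and 0.00107 from edgeR without a count filter, and it rose to 0.9999 without HFD replicate 3. The edgeR fit without a filter also gave an adjusted p of 3.07e-26 to prolactin (Prl), with 956 counts in HFD replicate 3 and 0 to 5 elsewhere. A small adjusted p in that fit can thus rest on 1 library. Set against Npy in the same library, Cartpt was at 16.5%, 23.2% and 21.2% of the Npy level on the NCD. On the HFD it was at 10.9%, 11.2% and 12.2%. These ratios do not depend on the scaling between libraries, and the groups did not overlap here either.

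The region before the start of Cartpt is shown because Cartpt was the member that differed, and those of Hcrt and Pmch because their levels moved together over the libraries. The promoter table of RefSeq (GRCm38.p6) held 8 of the 10 members. Each line gives the 250 bases before the start in RefSeq, which for Cartpt lies inside the longer GENCODE gene, 5′ to 3′ on the gene's strand, with every TGACG and TATAAA on either strand in capitals.
Cartpt (chr13:99900684-99900933, minus strand): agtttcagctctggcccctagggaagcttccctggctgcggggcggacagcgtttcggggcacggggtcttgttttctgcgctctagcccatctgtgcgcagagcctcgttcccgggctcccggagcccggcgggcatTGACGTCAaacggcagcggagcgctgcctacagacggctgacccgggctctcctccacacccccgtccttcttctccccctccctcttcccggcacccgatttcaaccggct
Hcrt (chr11:100762932-100763181, minus strand): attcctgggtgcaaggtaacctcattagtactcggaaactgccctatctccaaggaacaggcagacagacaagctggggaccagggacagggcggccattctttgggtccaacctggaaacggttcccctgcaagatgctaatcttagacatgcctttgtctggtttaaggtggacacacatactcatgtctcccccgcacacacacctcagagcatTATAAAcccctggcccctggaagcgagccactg
Pmch (chr10:88090822-88091071, plus strand): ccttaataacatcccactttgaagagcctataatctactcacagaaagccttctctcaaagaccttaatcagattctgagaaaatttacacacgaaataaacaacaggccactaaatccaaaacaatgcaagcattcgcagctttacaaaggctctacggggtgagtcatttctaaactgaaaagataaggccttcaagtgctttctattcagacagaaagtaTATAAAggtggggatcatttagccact
In Cartpt the capitals spell TGACGTCA, the palindrome that CREB binds, which holds TGACG once on each strand. Of 32851 promoters of this length, 1.55% hold TGACGTCA, and of the 8 members matched 1 does. The shorter TGACG was found in 2 of the 8, Cartpt and Trh, against 17.8% of all promoters. The letters TATAAA were found in 3 of the 8, Pmch, Hcrt and Pomc, against 12.4% of all. The STAT-type sequence TTCNNNGAA was found in 1 of the 8, Pmch, against 7.02% of all. These matches describe letters and not binding.

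Pomc (chromosome 12, 3954951 to 3960642, as in GRCm38 for all positions given) codes for the precursor of the melanocortins and of adrenocorticotropic hormone, and is made in the arcuate nucleus and, at high level, in the pituitary. The NCD libraries held 25, 43 and 11 Pomc counts, or 3.09, 4.64 and 1.16 CPM. The HFD libraries held 14, 35 and 89 counts, or 2.02, 3.82 and 12.2 CPM. HFD replicate 3 stood above the other 5 libraries, while HFD replicates 1 and 2 lay within the NCD range. The log2 fold change was 1.02 (95% interval from -0.12 to 2.15, unadjusted p = 0.0758 and adjusted p = 0.979, edgeR). Without HFD replicate 3 it was 0.01, with an interval from -1.06 to 1.08. Pomc passed the thresholds without NCD replicate 2, at a log2 fold change of 1.52, without HFD replicate 1, at 1.42, without HFD replicate 2, at 1.27, and without a count filter, at 1.02. In these fits 0.857%, 0.586%, 0.603% and 0.824% of the genes tested were higher past the thresholds. None of these Pomc values had an adjusted p under 0.05 in edgeR.

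Pituitary hormone mRNAs were high in the same library. Growth hormone (Gh) stood at 1092 CPM in HFD replicate 3 and between 1.31 and 7.66 CPM in the other libraries, and prolactin (Prl) at 131 CPM against 0 to 0.539 CPM. The summed level of the 14 listed pituitary markers was 1268 CPM there and between 4.81 and 9.82 CPM elsewhere. Cga, the subunit shared by the glycoprotein hormones, had 198 counts there and 0 to 3 elsewhere, and Fshb had 35 and 0. Lhb, Tshb and Lhx3 were also highest in that library. Pax7 and Pitx1, of the same list, were not, with 5 Pax7 counts there and 2 to 21 elsewhere, and 3 Pitx1 counts there and 0 to 4 elsewhere. Tbx19, the factor of Pomc-making pituitary cells, had 1 count there and 1 in HFD replicate 2, both under the floor of 3 counts. Ghrhr and Gnrhr had no count in any library. The part of pituitary RNA in the Pomc value was not tested.

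Npy and Agrp are made together by the arcuate neurons that drive feeding, and Npy is also known from cortical interneurons. The part of arcuate neurons in the Npy level was not tested, so that level does not describe them alone. Npy, on chromosome 6 from 49822710 to 49829507, had by far the highest level of the 10. It had 153, 152 and 146 CPM on the NCD and 154, 154 and 137 CPM on the HFD. The ranges overlapped, and the coefficient of variation over all 6 libraries was 4.48%. With a log2 fold change of -0.02, the interval ran from -0.23 to 0.20, or from 0.85 to 1.15 of the NCD level (unadjusted p = 0.88, adjusted p = 0.995, edgeR). Npy was not called in any of the alternatives tried.

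Agrp, an antagonist at melanocortin receptors, was hardly detected. The NCD libraries held 1, 6 and 0 Agrp counts and the HFD libraries 1, 6 and 1, against a floor of 3 counts per library that covers counting error only. Both NCD replicate 2 and HFD replicate 2 were above this floor. In GENCODE vM21 Agrp shares exon sequence with Gm5914 on its own strand and with Ctcf on the other, so even these reads are uncertain. At this depth a difference in Agrp was not detectable.

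The neurons of the lateral hypothalamus were followed by Hcrt and Pmch. Hcrt, on chromosome 11 from 100761069 to 100762931, encodes the orexin precursor, which promotes wakefulness and feeding. It had 13, 17.4 and 17.8 CPM on the NCD and 13.2, 15.3 and 0.962 CPM on the HFD. The last of these rests on 7 counts and is 6.29% of the median of the other 5 libraries. HFD replicates 1 and 2 lay within the NCD range. Over all libraries the log2 fold change was -0.69 (95% interval from -1.62 to 0.25, unadjusted p = 0.138 and adjusted p = 0.979, edgeR). Without HFD replicate 3 it was -0.17, with an interval from -0.56 to 0.22. Without HFD replicate 2 it was -1.19, past both thresholds (adjusted p = 0.963, edgeR), and Hcrt also passed them without a count filter, at -0.69. In these fits 1.03% and 1.27% of the genes tested were lower past the thresholds.

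Pmch, on chromosome 10 from 88091072 to 88092375, had 33.8, 44 and 43.7 CPM on the NCD and 38, 45.5 and 8.25 CPM on the HFD. Again HFD replicate 3 was the one low library, at 18.9% of the median of the other 5. The log2 fold change was -0.40 (95% interval from -1.12 to 0.32, adjusted p = 0.979, edgeR) and 0.04 without HFD replicate 3. Without HFD replicate 2 it was -0.82, past both thresholds (adjusted p = 0.963, edgeR). The ratio of Pmch to Hcrt was between 2.46 and 2.97 in 5 libraries and 8.57 in HFD replicate 3, where it rests on 60 and 7 counts.

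Pmch reads were also counted for a neighbour. Parpbp, a regulator of DNA recombination, lies on the other strand from 88091432 to 88146941 and its exons overlap those of Pmch. Its counts were 272, 410 and 410 on the NCD, where Pmch had 274, 408 and 415. On the HFD, Parpbp had 265, 410 and 60 counts where Pmch had 264, 416 and 60. In each library the counts differed by at most 6 reads. The use of strand in the counting is not given in the sources used here, and without strand the reads of such a pair cannot be told apart. Parpbp was also the gene with the profile most like Pmch, with a Pearson r of 0.9999 over the 6 libraries on log2 CPM.

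**Figure D2:**
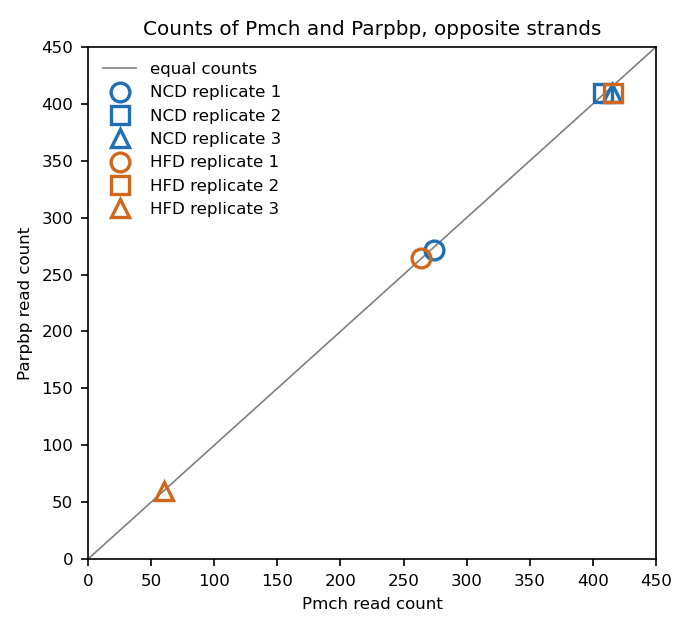
Read counts of Pmch (horizontal axis) and Parpbp (vertical axis), genes on opposite strands with overlapping exons, with 1 point per library and a grey line where both are equal. All 6 points lie within 6 reads of the line, from 60 counts in HFD replicate 3 to 410 Parpbp counts in NCD replicates 2 and 3 and HFD replicate 2.

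Of the paraventricular peptides, Oxt varied most. The gene, on chromosome 2 from 130576173 to 130577054, encodes oxytocin, which acts in lactation and social behaviour and lowers food intake. It had 12.8, 33.3 and 25.2 CPM on the NCD and 11.8, 36.1 and 3.3 CPM on the HFD. The libraries of one diet thus spread widely, and HFD replicate 3 was lowest, at 13.1% of the median of the other 5. The log2 fold change was -0.45 (95% interval from -1.45 to 0.56, adjusted p = 0.979, edgeR). It was 0.03 without HFD replicate 3 and -1.67 without HFD replicate 2, which had the highest Oxt level, and there Oxt passed both thresholds (adjusted p = 0.836, edgeR). Avp, the vasopressin gene next to Oxt in the genome, was lowest in the same library, at 1.1 CPM against 3.16 to 5.35 CPM in the others.

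Crh, on chromosome 3 from 19693401 to 19695396, encodes corticotropin-releasing hormone, the start of the stress axis. It had 20.9, 25.5 and 25.6 CPM on the NCD and 24.6, 21.9 and 25.6 CPM on the HFD. Crh was not low in HFD replicate 3, where Oxt and Trh had their lowest levels. As Crh is also known from cortical interneurons, its level does not describe the paraventricular nucleus alone, whose part in it was not tested. The log2 fold change was -0.0025 (95% interval from -0.31 to 0.30, or from 0.809 to 1.23 of the NCD level, adjusted p = 0.999, edgeR).

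Trh, on chromosome 6 from 92242061 to 92244650, encodes the precursor of thyrotropin-releasing hormone. It was rare, with 2.96, 5.93 and 2.11 CPM on the NCD and 2.16, 4.04 and 1.65 CPM on the HFD, and the groups overlapped. Its log2 fold change was -0.46, with an interval from -1.38 to 0.46. It was -0.22 without HFD replicate 3, -0.94 without HFD replicate 2, -0.74 without NCD replicate 3 and 0.081 without NCD replicate 2. Gal, on chromosome 19 from 3409915 to 3414544, encodes galanin, a peptide of hypothalamic and brainstem neurons that raises fat intake. It had 1.48, 3.67 and 2.32 CPM on the NCD and 2.59, 1.75 and 0.55 CPM on the HFD, the last from 4 counts. For Gal the log2 fold change was -0.62, with an interval from -1.68 to 0.44. It was -0.22 without HFD replicate 3, -0.23 without NCD replicate 2 and -1.07 without HFD replicate 1. Both had an adjusted p of 0.979 in edgeR's quasi-likelihood test, and the intervals reach from 0.385 to 1.38 of the NCD level for Trh and from 0.313 to 1.36 for Gal.

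**Figure D3:**
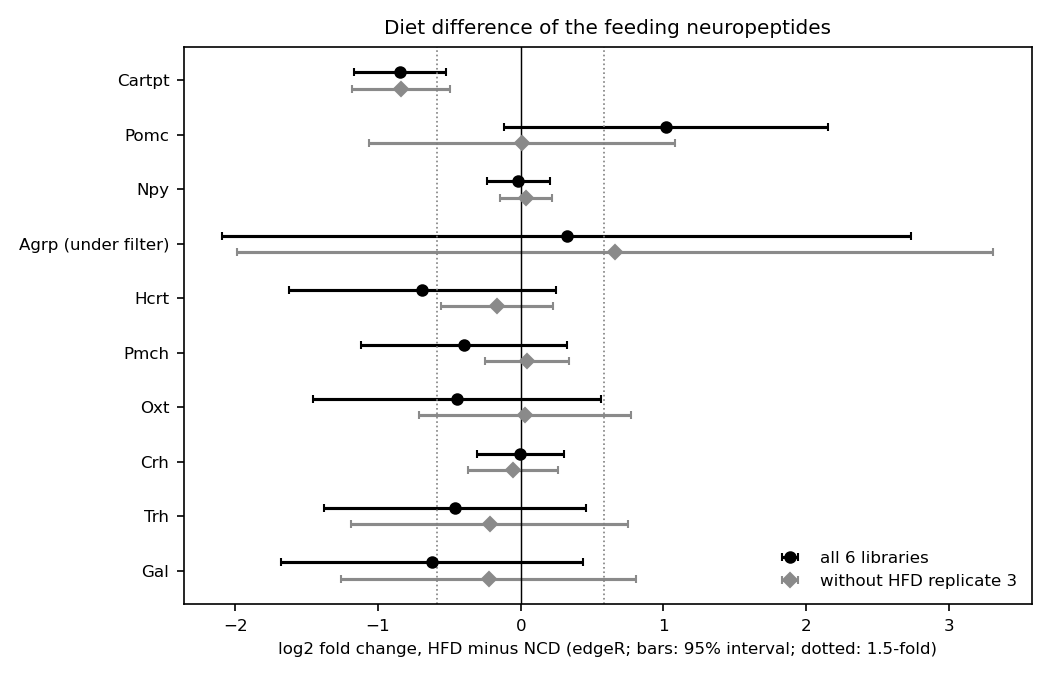
Log2 fold change between the diets (HFD minus NCD, horizontal axis) for each of the 10 genes, with all 6 libraries (black circles) and without HFD replicate 3 (grey diamonds), bars giving 95% intervals from edgeR and dotted lines 1.5-fold, and Agrp, under the count filter, read from the fit without it. The interval of Cartpt, from -1.17 to -0.53, lies below 0 in both fits, while the values of Pomc, Hcrt, Pmch, Oxt, Trh and Gal lie nearer to 0 without HFD replicate 3.

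Ordered by mean CPM over the 6 libraries, the genes ran Npy (149.5), Pmch (35.5), Crh (24), Cartpt (23.7), Oxt (20.4), Hcrt (12.9), Pomc (4.49), Trh (3.14), Gal (2.06) and Agrp (0.285). Only Npy stood apart, with a mean 4.21 times that of Pmch and no overlap of their ranges. Every other neighbour in this order had overlapping ranges. Members also differed in how they spread. The coefficient of variation over the libraries was 4.48% for Npy and 8.74% for Crh, and lay between 34% and 102% for the others. In edgeR's estimate, the biological coefficient of variation was 0.118 for Cartpt, 0.111 for Crh and 0.0966 for Npy, near the common value of 0.126, and at least 0.299 for each of the other 6 tested.

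HFD replicate 3 was the lowest library for 7 of the 9 members tested and the highest for 1. Over all genes tested it was lowest for 27.1% and highest for 26.2%. The summed level of the 10 members was 207 CPM there and between 266 and 323 CPM in the other libraries. Summed markers of nearby regions were also lowest in this library, though not each marker was. The 16 midbrain markers summed to 54.2 CPM against 81.7 to 106 CPM, and 9 of the 11 tested were lowest there. The 17 hypothalamic neuron markers summed to 24.9 CPM against 29.5 to 37.8 CPM, with Nkx2-4, Otp and Bsx at 0 counts in every library. Of the 5 tested, 3 were lowest there, while Six6, Sim1 and Calcr, all under the count filter, were highest there. Thalamus markers summed to 625 CPM against 649 to 772 CPM, and 4 of the 10 tested were lowest there. Interneuron markers summed to 1714 CPM against 1550 to 1642 CPM, and 3 of the 12 were highest there. Among these was Cck, at 748 CPM against 548 to 636 CPM, and without Cck the sum was not higher there. Lowest there were 5, among them Gad1 at 182 CPM against 229 to 278 CPM. The part of these tissues in the member values was not tested, and the members' diet differences are therefore given with and without this library.

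**Figure D4:**
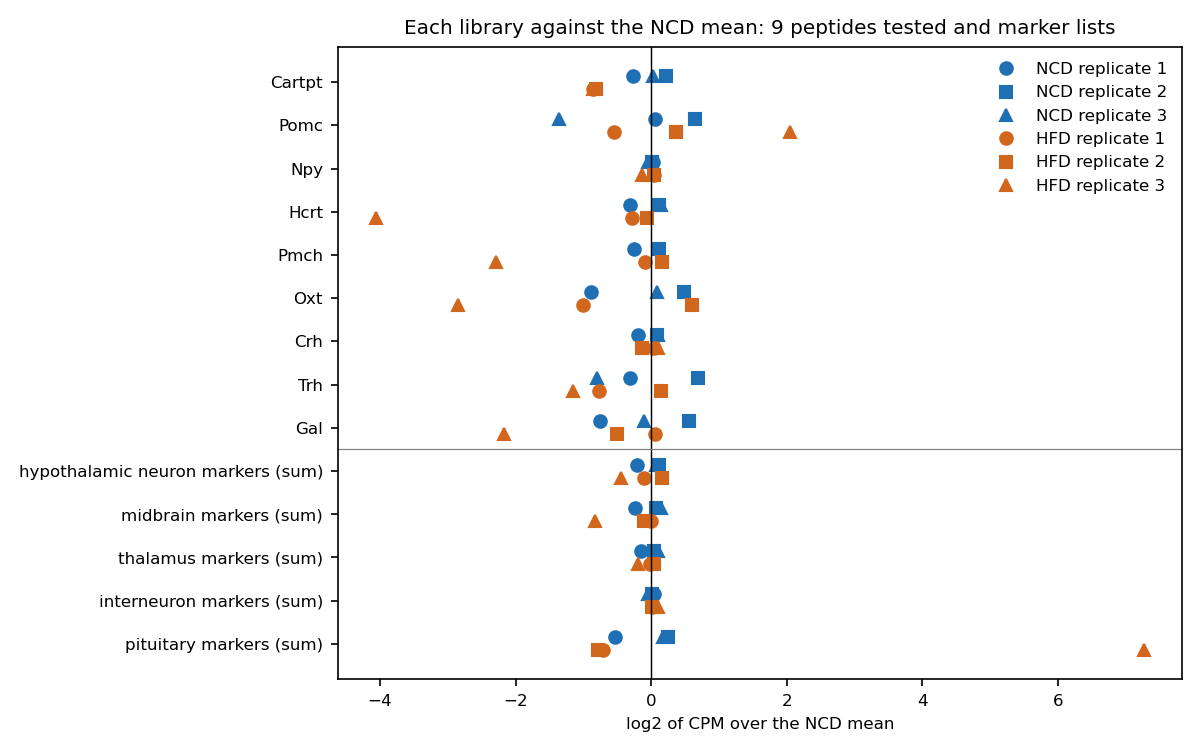
Level of each library relative to the NCD mean, as log2 of the CPM ratio (horizontal axis), for the 9 peptides tested and for the summed CPM of marker lists below the grey line, with blue for NCD, orange for HFD and a symbol per replicate. The orange triangle, HFD replicate 3, lies far left for Hcrt, Pmch, Oxt and Gal, right for Pomc and far right for the pituitary markers, where its sum was 1268 CPM, and the HFD points of Cartpt lie together left of the NCD points.

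Genes that serve these peptides were read from the same fit over all genes. Of 17 listed receptors, 8 were tested and 0 passed the thresholds in either direction. Their median log2 fold change was 0.16, beside -0.00245 over all genes tested. Without HFD replicate 3, where 9 receptors were tested, the median was 0.06. The most abundant were Npy1r at a log2 fold change of -0.08, Npy2r at 0.36 (95% interval from -0.03 to 0.75) and the Pmch receptor Mchr1 at 0.14. Npy4r and Trhr2 had no count in any library. All 16 genes of prohormone processing and peptide breakdown were tested and 0 passed, with a median of 0.01 and of -0.007 without HFD replicate 3. Without HFD replicate 1, 1 gene of this list was lower past the thresholds, as were 145 of the 14163 genes tested. The list includes the carboxypeptidase Cpe, which trims the cut peptides, at -0.04, the convertase Pcsk2 at 0.05 and its relative's inhibitor Pcsk1n at 0.12. Of the 10 dense-core granule genes, 0 passed. All 10 had a negative log2 fold change, with a median of -0.11 and of -0.03 without HFD replicate 3, and 9 were lowest in that library. The granule proteins Chgb and Scg2 had -0.04 and -0.10, and Cplx1, a regulator of vesicle release, had -0.12.

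Of 21 hormone receptors and transcription factors of feeding neurons, 15 were tested and 0 passed in either direction, with a median log2 fold change of -0.14 and of -0.03 without HFD replicate 3. The 3 most abundant were Arnt2 at -0.14, Igf1r at -0.14 and Creb1, the factor that binds TGACGTCA, at 0.17 (95% interval from -0.07 to 0.41). Without HFD replicate 3, 1 gene was higher past the thresholds, against 0.424% of the genes tested, Socs3, an inhibitor of leptin signalling, at 0.91 with an unadjusted p of 0.0178. With all libraries it had 0.62 and a p of 0.114. Socs3 had 2.35, 2.59 and 3.16 CPM on the NCD and 4.61, 5.57 and 2.2 CPM on the HFD. Among 32 other hypothalamic neuropeptides, 18 were tested and 0 passed, with log2 fold changes between -0.24 and 0.22 and a median of 0.05. Without HFD replicate 3, where 19 were tested, the median was 0.007. Cck, Sst and Penk, the most abundant, had 0.13, 0.05 and -0.01.

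Of the 17 hypothalamic neuron markers, 5 were tested and 1 was lower past the thresholds, Foxb1, a forkhead factor of the mammillary region and thalamus. It had 1.85, 2.59 and 1.9 CPM on the NCD and 0.864, 0.983 and 0.962 CPM on the HFD, without overlap. Its log2 fold change was -1.16 (95% interval from -2.12 to -0.20, adjusted p = 0.979, edgeR), and -1.18 without HFD replicate 3. Without NCD replicate 2, HFD replicate 1 or HFD replicate 2 the values were -0.98, -1.11 and -1.20, with unadjusted p of 0.092, 0.0637 and 0.0537 in edgeR. An exon of B230323A14Rik covers part of Foxb1 on the other strand. The remaining markers tested that were most abundant, Lhx9, Gpr101 and Hdc, had -0.29, -0.11 and -0.42 and were not called.

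**Figure D5:**
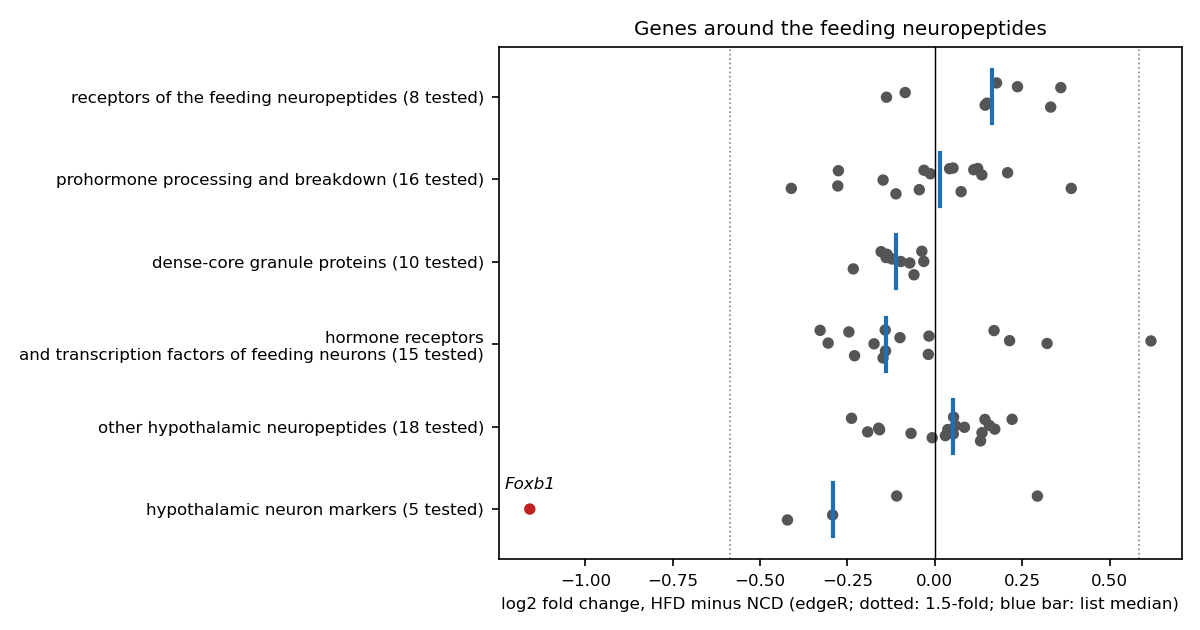
Log2 fold change (HFD minus NCD, horizontal axis) of each tested gene in 6 lists around the feeding neuropeptides, with a blue bar at the list median, dotted lines at 1.5-fold and red for genes past 1.5-fold and an unadjusted p of 0.05. The red point is Foxb1 at -1.16, and the other genes are grey.

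Profiles most like those of the members were listed by Pearson r over the 6 libraries on log2 CPM, as a description of libraries that share depth and tissue content. For Cartpt these were Ssh3 (0.98), Foxb1 (0.98) and Rnf114 (0.98). Ssh3 had 9.5, 10.6 and 10.1 CPM on the NCD and 7.34, 6.99 and 7.15 CPM on the HFD. For Pmch, Nsf (0.997) and Hcrt (0.995) followed Parpbp. Hcrt was matched by Vat1l and Mtss1 and Oxt by Cdh4, Esyt3 and Dgka, each of which was lowest in HFD replicate 3. For Pomc they were Ndufaf2, Snhg6 and Far1, each highest there. The genes were Zc3h7b and Wdr7 for Npy, Cog5, Ccdc15 and Klhdc8b for Crh, Gucy1a3, Limch1 and Prune2 for Trh, and 1810021B22Rik, Vac14 and Sestd1 for Gal.

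Markers of thalamus (10 tested), striatum (9), cortex and hippocampus (10) and interneurons (12) held 0 genes past the thresholds, and Drd2, a marker of striatal neurons, had 1 count over all libraries. In the midbrain list, Th at -0.85 and Foxa2 at -1.42 were lower past the thresholds, and neither was without HFD replicate 3. Of the pituitary list 3 genes were tested and 1 was higher, Gh at 6.13, which was lower without HFD replicate 3, at -1.71. Of 6 liver genes tested 5 were lower, among them Alb at -2.19, against 0.748% of all genes tested. Alb had 13.5, 26.9 and 3.9 CPM on the NCD and 2.02, 5.46 and 1.79 CPM on the HFD. Each of these 5, Ahsg, Alb, Apoa1, Apoa2 and Fgb, was highest in NCD replicate 2, and the NCD libraries differed widely. Without HFD replicate 3, 5 of 8 tested were lower, with Alb at -1.92, and they were not all the same genes. Apoa2, at -0.99, was no longer called, and Serpina1b, under the filter with all libraries, was called at -2.65. Of 7 erythroid genes 2 were higher, Hbb-b2 at 0.71 and Hbb-bt at 0.68, and all 7 had a positive log2 fold change, 6 with an unadjusted p under 0.05. Without HFD replicate 3 these values were 0.57 and 0.54, a little under 1.5-fold, with unadjusted p of 0.000757 and 0.00117 in edgeR. Hbb-b2 and Hbb-bt had similar counts in each library, such as 232 and 253 in NCD replicate 1 and 428 and 474 in HFD replicate 3. Hbb-b1 and Hbb-bs did too, at 1298 and 1316 in NCD replicate 1. Whether such pairs count the same reads was not tested, so the erythroid genes may not be separate measurements.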

How the data were processed

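Deposited for each library was a table of read counts per gene. The authors trimmed QuantSeq reads, mapped them to mm10 with Bowtie2 and counted unique and multiple alignments with Bedtools. The deposited counts are without normalization, while the study names quantile normalization in edgeR for its own read counts. Tool versions, the annotation and the use of strand are not given in the sources used here. Samples were grouped by the diet in their titles.

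In R 4.3.3, edgeR 4.0.16 with filterByExpr (minimum count 10, minimum total 15) kept 13771 of 23282 entries. Libraries were scaled with TMM and the diets compared with the quasi-likelihood test, Benjamini-Hochberg adjusted over all genes tested. Intervals rest on a standard error taken as the log2 fold change over the square root of F. Genes under the filter were read from the fit without it. A count of 3 was the floor, 0.316 to 0.432 CPM. Each pair of libraries differed by more than sampling noise (chi-square per degree of freedom at least 3.19).

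The members, gene lists and tests were chosen with earlier results of these data known. Named genes are the members and, per other list, the genes past the thresholds and the 3 with the highest mean CPM, with 3 like profiles per member tested, some of which are not reported here. Avp, Socs3, Fshb, Lhb, Tshb, Lhx3, Pax7, Pitx1, Tbx19, Drd2, Six6, Sim1, Calcr, Serpina1b and genes with no count were named after their values were seen. Lists were described by counts and medians. The test was tried on simulated counts. Alternatives used DESeq2 1.42.0, limma 3.58.1, other scalings and count filters, robust dispersions, leaving libraries out in turn, and replicate number as a block. Tables and plots used Python 3.11.15, pandas 2.3.3, scipy 1.17.1 and matplotlib 3.10.9.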

Additional observations from a re-analysis of the deposited data

How the results depend on the processing

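Cartpt was lower past the thresholds under all 15 alternatives. Of the 10 members, the number lower past the thresholds was 2 without a count filter, where Hcrt was added, and ran from 1 to 4 with a library left out, the 4 being Cartpt, Hcrt, Pmch and Oxt without HFD replicate 2, where 143 of 13920 genes were lower. The number higher was 1 without a count filter, which was Pomc, and ran from 0 to 1 with a library left out. A member had an adjusted p under 0.05 under DESeq2 and without a count filter, 1 in each, Cartpt. Over all genes, the number past the thresholds was 176, and 396 without a count filter. Genes with an adjusted p under 0.05 numbered 0, and 2 under DESeq2, 23 without a count filter and 3 without NCD replicate 3. Among the 23 were Prl, Cga and Fshb, each with most of its counts in HFD replicate 3. Without a count filter the standard error of Hcrt was 0.224, beside 0.442 with it, and that of Pomc 0.34, beside 0.537. The sign turned for Npy (0.038 log2 without HFD replicate 3, lowest -0.044 with a library left out), Pmch (0.044 without HFD replicate 3, lowest -0.82), Oxt (0.032 without HFD replicate 3, lowest -1.67) and Trh (0.081 without NCD replicate 2, lowest -0.94). For Crh it was 0.024 after quantile normalization, 0.0012 with a replicate block and from -0.091 to 0.064 with a library left out. Agrp, with both group means under the floor, had fitted values from -0.82 to 2.23 with a library left out, which are not to be read as folds. The cause was not tested, beyond the library left out.

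Same-numbered libraries of the diets did not deviate together (correlation of deviations from the group means -0.03, 0.05 and -0.06 over the genes tested). Pairs with different numbers had values from -0.06 to 0.08. With so few libraries, these values cannot exclude that same-numbered libraries were handled together. The replicate block left the calls on members as they were, with 155 genes past the thresholds in place of 176. Cartpt had a log2 fold change of -0.84 with the block. No scaling moved the median log2 fold change of all genes by over 0.1. Leaving out HFD replicate 3 brought the median over the 9 members tested from -0.45 to -0.05. Depth limits Agrp, Gal and Trh.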
